A study of Mus musculus with 6 samples.

Results

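The genes described here encode the 3 large enzyme families of phase II conjugation in the liver, the UDP-glucuronosyltransferases (Ugt), the sulfotransferases (Sult) and the soluble glutathione S-transferases (Gst). A row of the count table belonged to the group if its gene symbol began with Ugt1, Ugt2, Ugt3, with Sult and a number, or with Gst, a class letter and a number, and if its counts summed to at least 10 over the 6 libraries. Of 32212 rows, 64 matched by symbol and 51 reached the sum, 18 of them Ugt, 12 Sult and 21 Gst genes. The members nearest to the limit from above were Gsto2 and Sult2b1, each with 13 counts in all, and the nearest row below it was Ugt2a2 with 4.

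Phase II enzymes couple a polar group to drugs, bilirubin, bile acids, steroids and reactive metabolites so that bile or urine can carry the product away. Ugt enzymes sit in the endoplasmic reticulum and transfer a sugar, for Ugt1 and Ugt2 mostly glucuronic acid. Sult enzymes are cytosolic and transfer sulfonate from PAPS, and Gst enzymes join glutathione to electrophiles. The families arose by gene duplication and lie in clusters of close copies, and several members are known to differ in level between male and female mouse liver.

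Chromogranin A (CgA) is the prohormone encoded by Chga, which is deleted in CgA-KO mice. Whole-liver poly(A) RNA was sequenced from 3 WT and 3 CgA-KO mice, all male, on the C57BL/6 background, fed normal chow and 2 yr old by the library titles. No separate litter, pool or treatment is given for them, and the genotype is the only difference that the labels name. The comparison asks how aged livers without CgA differ from aged WT livers in the transcripts for conjugating enzymes.

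Library totals were 10558616 to 31087453 counts in WT and 19223595 to 28672817 in CgA-KO livers. At these depths 3 counts, the floor used here, stand for 0.0951 to 0.269 CPM, counts scaled to a common library total with TMM factors (trimmed mean of M values), and this floor covers counting error only. Chga had 0 counts in all 6 libraries, so it could not check the genotype labels. On the main axis of a principal component analysis of the genes with most variance, WT replicate 1 stood at -11.6 (no unit), while the other WT livers stood at -43.4 and -44.2 and the CgA-KO livers between 24.8 and 39.5. Hepatocyte markers were abundant in every library, with a summed level of 54259 to 90438 CPM in WT livers and 45658 to 77140.0 CPM in CgA-KO livers, and 0 of 10 was called by edgeR's test of genotype (1 at an unadjusted p under 0.05, 1 by DESeq2 and 0 by limma-voom). Markers of Kupffer cells, the resident liver macrophages, summed to 144 to 351 CPM in WT livers and 1465 to 2083 CPM in CgA-KO livers, with 10 of 12 higher and none of the 12 at 0. Of all genes tested, 8.60% were called higher. In whole tissue, fewer cells of a type cannot be told apart from less RNA per cell.

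CgA-KO livers had lower normalized counts assigned to Gstp1, Gstm6 and Ugt1a6a and higher ones to Sult1e1, Gstm2 and Sult5a1. These 6 of the 46 members that had enough counts to be tested passed an adjusted p-value of 0.05 in edgeR's quasi-likelihood test. The share called was 13.0%, against 12.4% of all 13867 genes tested (8.60% higher and 3.84% lower). The number of calls was thus close to the background. Most members had lower estimates in CgA-KO livers, since 34 of 46 (73.9%) had a log2 fold change below 0, against 50.6% of all genes, and the median was -0.37 against -0.01. In 18 members (39.1%) the 3 CgA-KO livers lay wholly to one side of the 3 WT livers, 7 above and 11 below, while this was seen in 33.6% of all genes (19.0% above and 14.6% below). An unadjusted p-value under 0.05 was reached by 18 members (39.1%, against 29.1% of all genes). Log2 fold changes are CgA-KO over WT throughout, with an approximate standard error (SE). With 3 livers a side, 0.1 is the smallest two-sided p that exact permutation of single values allows.

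**Figure D1:**
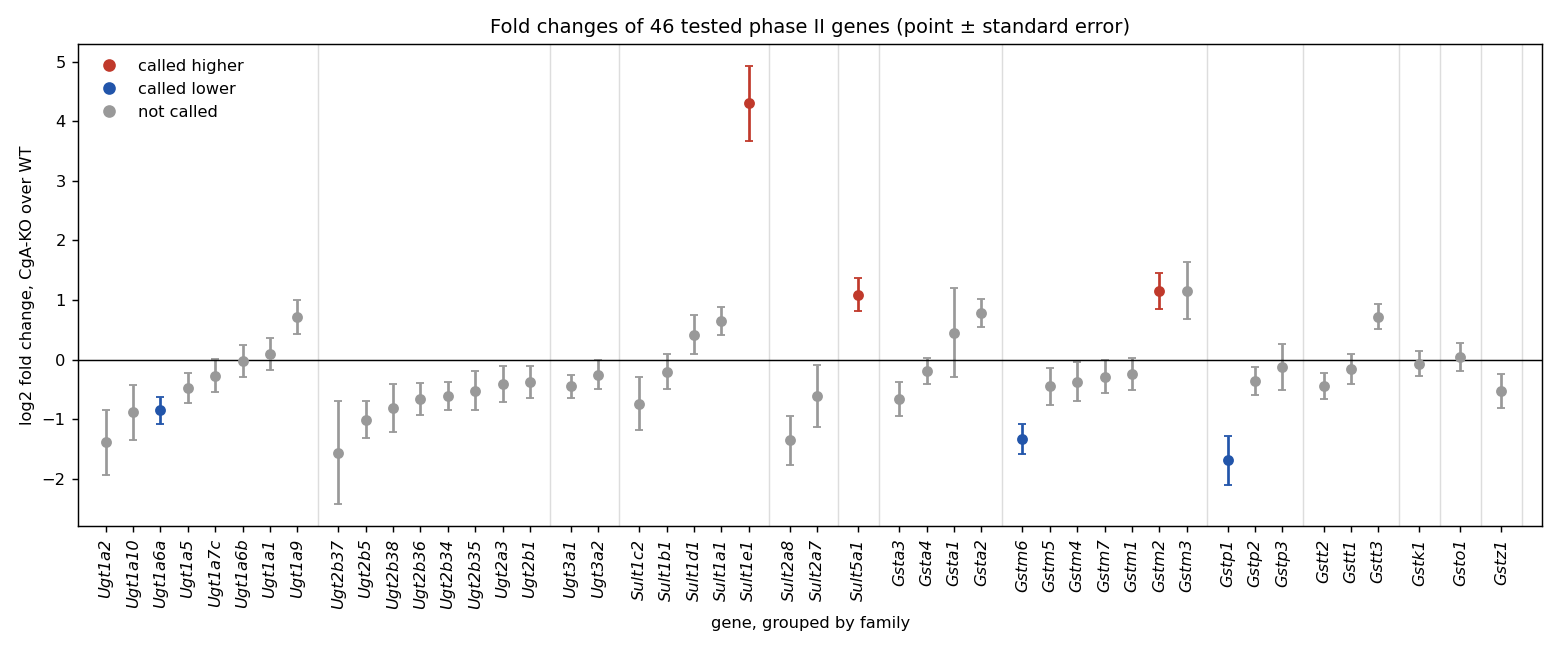
Log2 fold change of CgA-KO over WT livers (y axis, point ± standard error) for the 46 tested genes (x axis), sorted within each family and coloured by whether the adjusted p-value was under 0.05. Most points lie below 0, all 8 Ugt2 genes among them, and Sult1e1 stands highest at 4.30.

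The number of members below 0 depended on how libraries were scaled, while their median stayed below that of all genes under each scaling. With upper-quartile factors 33 of 46 members were below 0, and with the size factors of DESeq2 34 were. With library size alone only 24 were, where 29.4% of all genes tested were below 0. Scaling by library size alone also moved the median of all genes tested to 0.26. The members' median then stood at -0.06, which is 0.32 below that of all genes, against 0.36 below it under TMM. The split of calls moved with the scaling too, from 3 higher and 3 lower under TMM to 6 higher and 2 lower with library size alone and 5 higher and 3 lower with upper-quartile factors.

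**Figure D2:**
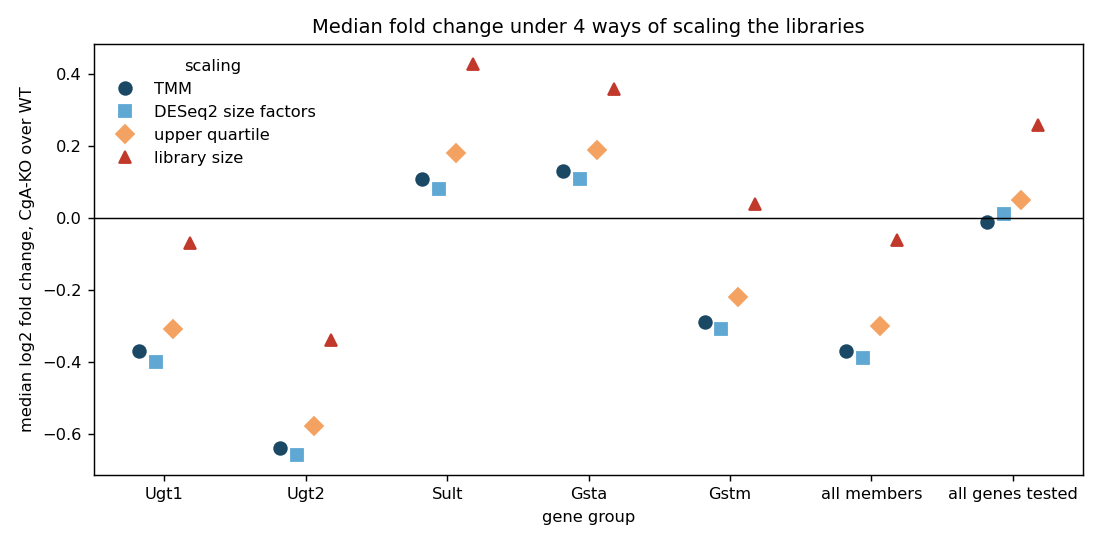
Median log2 fold change of CgA-KO over WT (y axis) for gene groups (x axis) under 4 ways of scaling the libraries, with the median over all genes tested at the right. The Ugt2 median stays below 0 under each scaling, whereas the Gstm median passes from -0.29 under TMM to 0.04 with library size alone. The median of all genes tested is -0.01 under TMM and 0.26 with library size alone.

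Close copies share sequence, so reads can be moved between them by the counting, and the sequences that the main results turn on are shown first. The pi class genes Gstp1 (chromosome 19, 4035407 to 4037985, minus strand, GRCm38) and Gstp2 (4040285 to 4046023, minus strand) are neighbours. Their coding sequences of 630 bases differed at 12 positions, which is 98.1% identity, and the longest shared run was 300 bases. The first 60 coding bases, from GENCODE transcripts of GRCm38, hold 6 of these differences, in capitals here.
Gstp1: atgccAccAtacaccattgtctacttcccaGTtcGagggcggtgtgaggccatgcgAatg
Gstp2: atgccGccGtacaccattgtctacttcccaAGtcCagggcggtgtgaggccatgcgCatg
The mu class genes Gstm2 (chromosome 3, 107981702 to 107986453, minus strand) and Gstm6 (107938847 to 107943749, minus strand) differ far more, with 80.9% identity and a longest shared run of 38 bases. Coding bases 364 to 423 of Gstm2 are set beside the aligned bases 406 to 465 of Gstm6, with 13 differing bases in capitals.
Gstm2: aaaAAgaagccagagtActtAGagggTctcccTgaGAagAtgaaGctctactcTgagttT
Gstm6: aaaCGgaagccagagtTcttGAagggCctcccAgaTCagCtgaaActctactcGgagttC
Ugt1a6a (chromosome 1, 88134809 to 88218997, plus strand) and Ugt1a6b (88103252 to 88219003, plus strand) belong to the Ugt1a locus, where isoforms have a first exon of their own and share the last exons. They differed at 26 of 1593 coding positions, and both are identical over a run of 774 bases. Coding bases 296 to 355 hold 9 of the differences, in capitals.
Ugt1a6a: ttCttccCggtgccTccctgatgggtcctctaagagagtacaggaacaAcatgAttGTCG
Ugt1a6b: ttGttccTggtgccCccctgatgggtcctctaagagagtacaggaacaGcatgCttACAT
Measured as stretches of 31 bases that also occur in transcripts of another gene, 57.8% of Gstp1, 17.4% of Gstm2, 15% of Gstm6 and 96.8% of Ugt1a6a were shared. For Sult1e1 this share was 0, and for Sult5a1 and Sult2a8 it was 4.52% and 3.96%. The split between near-identical copies is therefore uncertain, and summed levels are given beside it.

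Among the glutathione S-transferases the pi class had the largest decrease. Gstp1, which conjugates glutathione to many electrophiles and is known to be higher in male than in female mouse liver, measured 1041, 2191 and 1615 CPM in the WT livers and 286, 482 and 734 CPM in the CgA-KO livers. The highest CgA-KO liver lay below the lowest WT liver. Mean levels were 1616 ± 575 and 501 ± 225 CPM (SD, n = 3), a 3.23-fold difference (log2 -1.69, SE 0.406, edgeR adjusted p = 0.029). The call of Gstp1 was lost on leaving out any of 4 livers, with edgeR adjusted p at 0.0877 and 0.0996 on leaving out WT replicates 2 and 3 and at 0.0846 and 0.094 on leaving out CgA-KO replicates 1 and 2, and the log2 fold change then stood between -1.70 and -1.37. Per kilobase of transcript, Gstp1 had the highest mean level of all members, at 1968 CPM per kb in WT, and in CgA-KO livers its 610 CPM per kb lay below Gstm1 (848) and Gsta3 (660).

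The neighbour Gstp2 measured 48.5, 72.5 and 57.4 CPM in WT livers and 33.6, 48.1 and 57 CPM in CgA-KO livers, and the genotypes overlapped (log2 -0.36, SE 0.241, edgeR adjusted p = 0.358). Gstp3 measured 11 ± 4.75 and 10.1 ± 4.59 CPM. The sum of the 3 pi class genes, which does not depend on how reads were split among them, was 1097, 2280.3 and 1681 CPM in WT livers and 328, 545 and 798 CPM in CgA-KO livers, again without overlap. Within a library, Gstp1 had 21.5, 30.2 and 28.1 times the counts of Gstp2 in WT livers and 8.52, 10 and 12.9 times in CgA-KO livers. Gstp1 held 21.5%, 27.7% and 29.1% of all Gst counts in WT and 8.46%, 11.6% and 15.5% in CgA-KO livers. Neither the ratio nor the share depends on library scaling, and neither overlapped. These ratios and shares were chosen after the values were seen and have no test.

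The mu class, whose members also act on electrophiles and lie in a row on chromosome 3, had members in both directions. Gstm6 measured 58.8, 96.8 and 57 CPM in WT livers and 30.0, 23.8 and 31.1 CPM in CgA-KO livers, without overlap. It fell by 1.33 on the log2 scale (SE 0.246, edgeR adjusted p = 0.0126) and was called in each of the 6 fits that left out a liver, at -1.47 to -1.04. Gstm2 measured 38.7, 54.9 and 24.6 CPM in WT livers and 67.9, 101 and 92.9 CPM in CgA-KO livers. All CgA-KO livers lay above all WT livers, and Gstm2 rose by 1.15 on the log2 scale (SE 0.298, edgeR adjusted p = 0.0388). The call of Gstm2 held in 1 of the 6 fits that left out a liver, the fit without WT replicate 2, and the adjusted p of edgeR was 0.0529 without WT replicate 1, 0.131 without WT replicate 3, and 0.0505, 0.0938 and 0.0748 without CgA-KO replicates 1, 2 and 3.

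Within a library the counts of Gstm2 were 0.658, 0.567 and 0.431 times those of Gstm6 in WT livers and 2.26, 4.22 and 2.99 times in CgA-KO livers, so the order of the genes was opposite in the 2 genotypes. This pair was chosen with the values known and has no test. Its lack of overlap follows from the opposite directions of Gstm2 and Gstm6 and adds nothing to them. Gstm1, the most abundant mu class gene, measured 1287 ± 231 and 1093 ± 210 CPM, and the genotypes overlapped (log2 -0.24, SE 0.266, edgeR adjusted p = 0.606). The summed level of the 7 mu class genes was 1542 ± 315 CPM in WT livers and 1419 ± 293 CPM in CgA-KO livers, also with overlap. Gstm3 varied among the CgA-KO livers, with 92.4, 90.0 and 269 CPM in CgA-KO livers against 81.2, 83.5 and 37 CPM in WT, and was not called (edgeR adjusted p = 0.143).

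**Figure D3:**
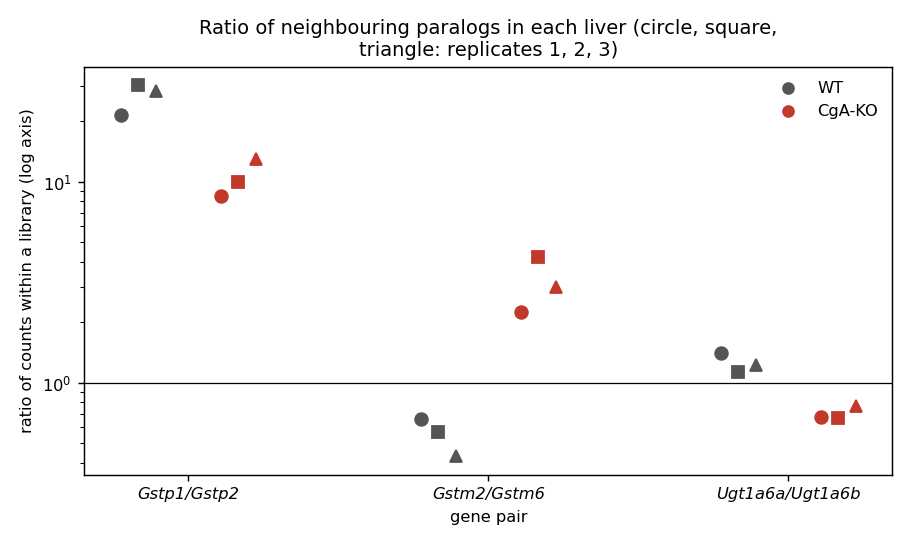
Ratio of the counts of paralogous genes within a library (y axis, log scale, no unit) for 3 gene pairs (x axis), each symbol a liver. In none of the pairs do the WT (grey) and CgA-KO (red) livers overlap, and Gstm2/Gstm6 passes from below 1 in WT to above 1 in CgA-KO livers. The pairs were chosen with the values known, and the ratios have no test.

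In the alpha class, Gsta3 was the most abundant gene and is known for the conjugation of aflatoxin epoxide. It measured 1166, 2041 and 1356 CPM in WT livers and 920.2, 919 and 1046 CPM in CgA-KO livers, without overlap, but was not called (log2 -0.66, SE 0.28, edgeR adjusted p = 0.157). Gsta2 lay the other way, at 53.3, 67.3 and 49.5 CPM in WT livers and 74.6, 121 and 96.3 CPM in CgA-KO livers. Its log2 fold change was 0.78 (SE 0.23, edgeR adjusted p = 0.0586), and it was called with DESeq2, with library size alone, with upper-quartile factors and with a filter of 10 counts in every library. Of the 31-base stretches of Gsta2, 58.8% also occur in transcripts of other genes, so its level depends on how reads were split. Gsta1, with 92.2% of its 31-base stretches found in other transcripts, ranged from 6.9 to 54.8 CPM over the livers with overlap. The alpha class sum, which Gsta3 dominated, was 1665 ± 473 CPM in WT livers and 1145 ± 108 CPM in CgA-KO livers.

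The 6 tested genes of the remaining Gst classes had no call by edgeR, with 1 at an unadjusted p under 0.05, Gstt3, which DESeq2 and limma-voom called. Gstt3 of the theta class measured 38.8, 60.3 and 49.8 CPM in WT livers and 82.2, 88.6 and 73.9 CPM in CgA-KO livers. These groups did not overlap, yet the adjusted p of edgeR was 0.0552 (log2 0.72, SE 0.207), and the call was also made with library size alone, upper-quartile factors, a filter of 10 counts in every library and without WT replicate 2. Gstt1, the most abundant theta gene, measured 165 ± 36.5 and 148 ± 38.5 CPM. Gstz1, the maleylacetoacetate isomerase of tyrosine breakdown, measured 738 ± 223 and 513 ± 94.8 CPM (log2 -0.53, SE 0.282, edgeR adjusted p = 0.255). Gstk1, found in mitochondria and peroxisomes, and Gsto1, which acts on oxidized thiols and other small substrates, stood at log2 fold changes of -0.07 and 0.05 with overlapping livers.

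The sum of all 21 Gst genes was 4845, 7908 and 5553 CPM in WT livers and 3382, 4148 and 4752 CPM in CgA-KO livers. The highest CgA-KO liver lay just below the lowest WT liver, and library size alone brought the log2 ratio of the means from -0.58 to -0.27. It was -0.34 without WT replicate 2, the liver with the highest sum.

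The sulfotransferases held the largest increase among the tested members. Sult1e1, the estrogen sulfotransferase (chromosome 5, 87575969 to 87591594, minus strand), measured 0.896, 0.213 and 0.127 CPM in WT livers and 5.94, 5.49 and 9.55 CPM in CgA-KO livers. These levels rest on 10, 5 and 3 counts in WT and 128, 173 and 213 counts in CgA-KO livers, and the gene entered the test through the CgA-KO libraries. The fitted difference was 4.30 on the log2 scale (SE 0.629, edgeR adjusted p = 0.00592). The gene was called in all 6 fits that left out a liver, and its log2 fold change was 5.36 without WT replicate 1, which held 10 of the WT counts, and 3.80 to 4.49 in the other fits. Sult5a1 (chromosome 8, 123140192 to 123158315, minus strand) measured 7.79, 6.08 and 7.92 CPM in WT livers and 11.8, 21.8 and 12.6 CPM in CgA-KO livers, without overlap, and rose by 1.09 on the log2 scale (SE 0.28, edgeR adjusted p = 0.0376). Its adjusted p in edgeR was 0.108 or 0.113 on leaving out WT replicate 2 or 3, and 0.0536 or 0.0896 on leaving out CgA-KO replicate 1 or 2.

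**Figure D4:**
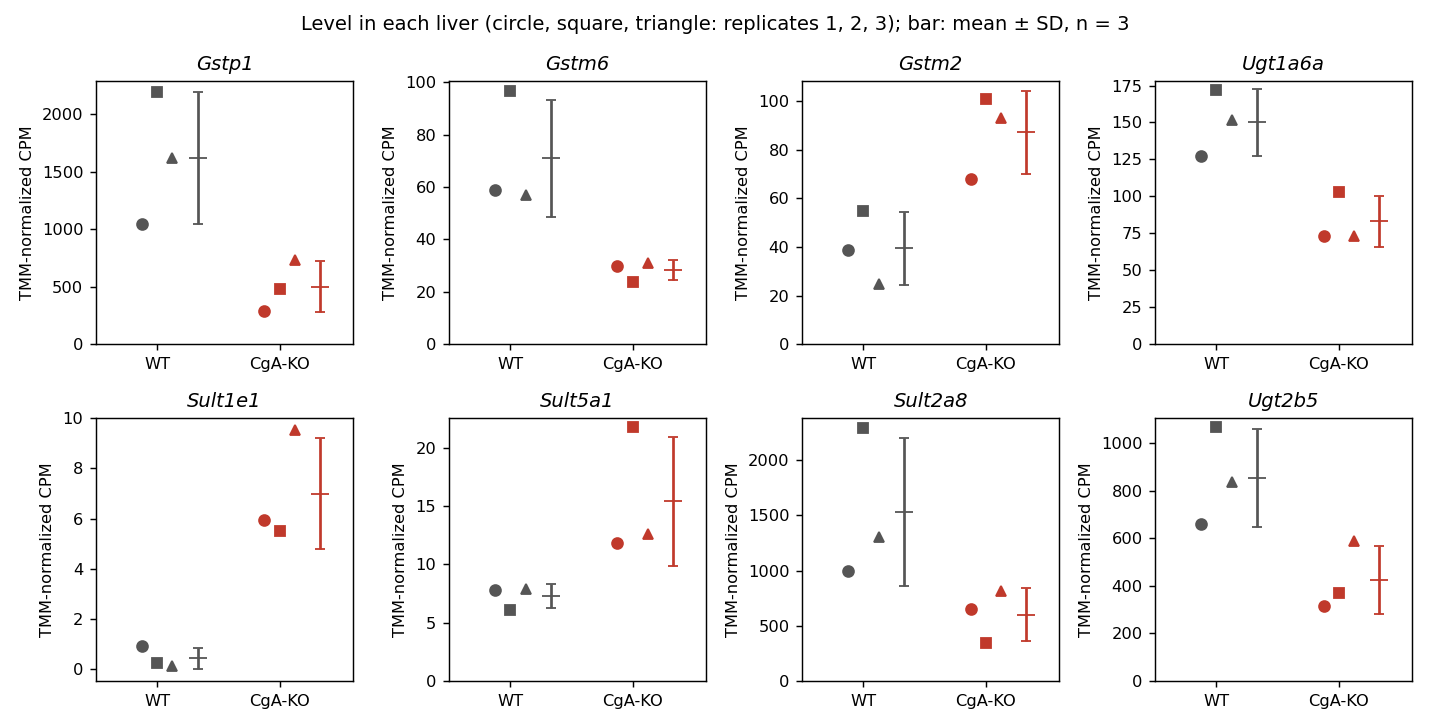
TMM-normalized CPM (y axis) of 8 genes in each WT (grey) and CgA-KO (red) liver, with symbols for replicates and a bar for the mean ± SD (n = 3). In each panel the genotypes do not overlap. The first 6 genes were called, while Sult2a8 and Ugt2b5 had adjusted p-values of 0.0642 and 0.0656 in edgeR.

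Sult2a8 (chromosome 7, 14410686 to 14446769, minus strand), which sulfonates bile acids in mouse liver, was the most abundant sulfotransferase. It measured 998, 2287 and 1304 CPM in WT livers and 651, 341 and 811 CPM in CgA-KO livers, and the groups did not overlap. The log2 fold change of -1.35 (SE 0.41) had an adjusted p of 0.0642 in edgeR, so it was not called, while DESeq2 gave 0.00481 and edgeR without WT replicate 1 gave 0.0373. The phenol sulfotransferase Sult1a1 measured 240.5, 285 and 219 CPM in WT livers and 427, 431 and 299 CPM in CgA-KO livers, again without overlap and without a call (log2 0.64, SE 0.235, edgeR adjusted p = 0.112; 0.0316 with library size alone). Sult1d1, which acts on catecholamines, measured 178 ± 69.2 and 238 ± 64.7 CPM with overlap.

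The make-up of the sulfotransferase transcripts differed between the genotypes without overlap. Sult2a8 held 71.7%, 79.1% and 74.9% of all Sult counts in WT and 46.8%, 34.3% and 55.2% in CgA-KO livers. Sult1a1 held 17.3%, 9.84% and 12.6% in WT and 30.7%, 43.2% and 20.4% in CgA-KO livers, and Sult1d1 held 7.86%, 8.57% and 10.1% against 18.4%, 16.7% and 19.8%. The Sult1 genes together measured 466 ± 109 CPM in WT livers and 664 ± 51.8 CPM in CgA-KO livers, and the Sult2 genes measured 1535 ± 677 and 606 ± 241 CPM, both without overlap. Sult2a8 made up 99.1% to 99.7% of the Sult2 sum in each library, so this sum restates Sult2a8. The low-count genes Sult2a1, Sult2a2 and Sult2b1 lay the other way. Without WT replicate 2 the log2 ratio of the Sult2 means stood at -0.93, against -1.34 with all livers. The shares do not depend on scaling, and they have no test, since they were chosen with the values known. They are parts of the same total, so a lower share of Sult2a8 raises the others. The shares are therefore not separate results, and the level of Sult1d1 itself overlapped.

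**Figure D5:**
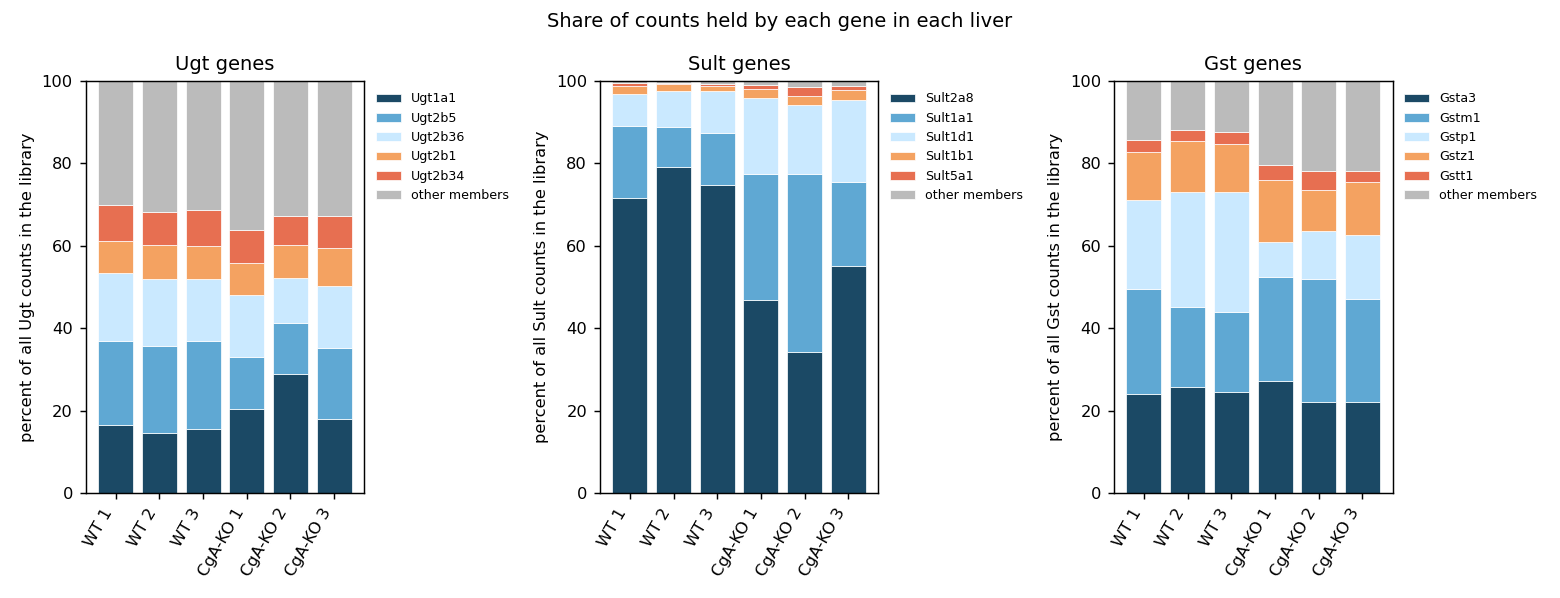
Percent of all Ugt, Sult or Gst counts (y axis) held by the 5 most abundant members of each and by the others in each of the 6 livers (x axis). Sult2a8 holds 71.7% to 79.1% of Sult counts in WT and 34.3% to 55.2% in CgA-KO livers, and Gstp1 holds 21.5% to 29.1% and 8.46% to 15.5% of Gst counts.

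A total of 5 members had too few counts for the test, and 4 of them are sulfotransferases. Sult2a2 had 1 count over the WT libraries and 41 over the CgA-KO libraries, a ratio of 31.7 with a 95% counting interval from 5.38 to 1282. Sult3a1, an amine sulfotransferase, had 2 and 35 counts (ratio 13.5, 3.48 to 116), and Sult2a1 had 1 and 16 (ratio 12.4, 1.92 to 519). All 3 are genes known to be higher in female than in male mouse liver. They reached the summed count required of a member only through the CgA-KO libraries. Each CgA-KO library lay above each WT library for them, but genes that enter in this way are bound to lie higher in CgA-KO livers. Their separation is therefore no support for a direction or for a sex pattern. Sult2b1, which sulfonates cholesterol, also reached the sum through the CgA-KO libraries. It had 0 and 13 counts, and was at least 3.35-fold higher against a floor of 3 counts over the WT group. Gsto2 had 7 and 6 counts (ratio 0.663, 0.184 to 2.3). The intervals treat counts of a genotype as a single pool and cover counting error only. With a filter on a total of 1 count, edgeR gave adjusted p = 0.0139 for Sult2a2, 0.0451 for Sult3a1, 0.131 for Sult2a1 and 0.088 for Sult2b1. Since 74.5% of Sult2a2 and 55.6% of Sult2a1 is shared sequence, the split between these genes is uncertain.

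The UDP-glucuronosyltransferases had 1 call and a common direction in the Ugt2 genes. Ugt1a6a, which conjugates planar phenols, measured 127, 172 and 152 CPM in WT livers and 73.2, 103 and 73.4 CPM in CgA-KO livers, without overlap. It fell by 0.85 on the log2 scale (SE 0.222, edgeR adjusted p = 0.0393). The call was lost with library size alone (log2 -0.56, edgeR adjusted p = 0.0971) and in edgeR fits that omitted WT replicate 2 (0.0897), WT replicate 3 (0.137), CgA-KO replicate 1 (0.15) or CgA-KO replicate 3 (0.118). Its near copy Ugt1a6b measured 89.7, 152 and 124 CPM in WT livers and 109, 155 and 95.7 CPM in CgA-KO livers, with overlap (log2 -0.02, SE 0.266). The ratio of Ugt1a6a to Ugt1a6b was 1.41, 1.13 and 1.22 in WT and 0.672, 0.664 and 0.767 in CgA-KO livers. It was chosen with the values known and has no test. Since 96.8% of Ugt1a6a occurs in other transcripts, those of Ugt1a7c most of all, this split rests on a small part of the sequence.

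Ugt1a1, the bilirubin glucuronosyltransferase and the most abundant gene of the locus, measured 532, 734 and 609 CPM in WT livers and 510.4, 874 and 610.2 CPM in CgA-KO livers (log2 0.09, SE 0.272, edgeR adjusted p = 0.864). Ugt1a2 had the largest difference of the family and a low level, 1.02 ± 0.076 and 0.374 ± 0.253 CPM, and was not called (edgeR adjusted p = 0.133). The 8 Ugt1 genes summed to 892, 1260.1 and 1014 CPM in WT livers and 864, 1279 and 989.7 CPM in CgA-KO livers. The level of the locus as a whole thus overlapped between the genotypes, at a log2 ratio of the means of -0.02 under TMM and 0.28 with library size alone.

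The Ugt2 enzymes conjugate steroids, bile acids and drugs, and all 8 of their genes had a log2 fold change below 0, with a median of -0.64 and a range of -1.56 to -0.37. All 8 were also below 0 with DESeq2, upper-quartile factors and library size alone, but 0 of 8 was called by edgeR. At an unadjusted p under 0.05 there were 3 of 8, Ugt2b5, Ugt2b34 and Ugt2b36, while DESeq2 called 2 and limma-voom 0. Ugt2b5 (chromosome 5, 87124960 to 87140318, minus strand) was the most abundant, at 658, 1067 and 836 CPM in WT livers and 316, 370.0 and 588 CPM in CgA-KO livers. Its livers did not overlap, with a log2 fold change of -1.01 (SE 0.309) and an edgeR adjusted p of 0.0656, which was 0.0468 when WT replicate 1 was left out and 0.0401 when CgA-KO replicate 3 was. Ugt2b36 measured 646 ± 156 and 408 ± 92.1 CPM (log2 -0.66, SE 0.27, edgeR adjusted p = 0.142), and Ugt2b1 measured 325 ± 82 and 252 ± 60.2 CPM.

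Ugt2b37 had the most negative estimate, at -1.56, but its levels of 5.19, 1.11 and 0.508 CPM in WT livers and 0.371, 0.507 and 1.34 CPM in CgA-KO livers overlapped and 1 WT liver set the mean. The Ugt2 genes summed to 2059.7, 3373 and 2579.8 CPM in WT livers and 1402, 1454 and 2142 CPM in CgA-KO livers, with CgA-KO replicate 3 above the lowest WT liver. Their log2 ratio of means was -0.68, and -0.48 without WT replicate 2. Ugt2b5 held 20.5%, 21.2% and 21.4% of all Ugt counts in WT and 12.6%, 12.2% and 17.3% in CgA-KO livers, while Ugt1a1 held 16.5%, 14.6% and 15.6% against 20.3%, 28.9% and 17.9%. Neither share overlapped. The Ugt3 enzymes use other sugars than glucuronic acid. Ugt3a2 measured 238 ± 57.8 and 199.8 ± 20 CPM and Ugt3a1 measured 91.5 ± 15.6 and 66.9 ± 6.08 CPM, and neither was called.

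Promoter sequence is shown for the members with the lowest and the highest log2 fold change among the 46 tested, from RefSeq on GRCm38.p6, as 250 bases before and 50 after the start site on the minus strand. A promoter was found for 44 members. The letters searched on both strands were GCGTG, the core bound by the aryl hydrocarbon receptor, AGGTCA, the single site of nuclear receptors, TGACNNNGC, the antioxidant response core, and TTCNNNGAA, the palindrome that STAT5 binds. Gstp1 at chr19:4037863-4038162 held GCGTG once, in capitals, 13 bases before the start.
Gstp1: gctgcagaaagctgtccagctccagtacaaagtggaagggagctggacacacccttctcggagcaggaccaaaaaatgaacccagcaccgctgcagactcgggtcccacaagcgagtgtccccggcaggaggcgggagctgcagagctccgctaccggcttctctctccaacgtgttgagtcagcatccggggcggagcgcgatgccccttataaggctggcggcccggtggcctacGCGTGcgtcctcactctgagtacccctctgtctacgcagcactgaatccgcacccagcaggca
Sult1e1 at chr5:87591562-87591861 held AGGTCA once on the opposite strand, in capitals as TGACCT.
Sult1e1: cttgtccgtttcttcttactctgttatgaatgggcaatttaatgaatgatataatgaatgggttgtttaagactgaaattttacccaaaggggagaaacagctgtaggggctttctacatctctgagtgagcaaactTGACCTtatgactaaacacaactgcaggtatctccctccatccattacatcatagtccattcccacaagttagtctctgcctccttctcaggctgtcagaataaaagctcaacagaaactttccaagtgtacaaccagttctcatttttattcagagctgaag
Over the members, 9 of 44 promoters (20.5%) held GCGTG, against 32.4% of 32851 promoters, and 10 (22.7%) held AGGTCA, against 16.3%. TGACNNNGC was in 2 (4.55%, against 12.4%) and TTCNNNGAA in 3 (6.82%, against 8.3%), those of Ugt1a6a, Gsta1 and Sult3a1. Of the 10 promoters with AGGTCA, 5 belonged to Ugt2b genes, Ugt2b5, Ugt2b35, Ugt2b36, Ugt2b37 and Ugt2b38. Those of Ugt2b1 and Ugt2b34 held none. The match lay on the strand of the gene, at -22 in Ugt2b5, -25 in Ugt2b36 and Ugt2b38 and -39 in Ugt2b37, but at -215 in Ugt2b35. Matches at such similar places in close copies cannot be counted as independent, and the likeness of these promoters was not measured. Of the 31-base stretches of Ugt2b5, Ugt2b37 and Ugt2b38, 56.4%, 34.4% and 52.9% also occur in transcripts of other genes. For Ugt2b35 and Ugt2b36 this share was 4.4% and 13.1%.

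The genes that supply and follow conjugation were taken as 7 lists. Of their 67 tested genes 9 were called (13.4%, near the 12.4% of all genes), and their median log2 fold change was -0.26. The list of cofactors for glucuronidation had 0 of 6 called by edgeR, with 3 at an unadjusted p under 0.05, 2 by DESeq2 and 1 by limma-voom, and a median of -0.43. The list for sulfonation had 1 of 7, the sulfate transporter Slc26a1, at 119 ± 5.86 CPM in WT livers and 66.8 ± 17.6 CPM in CgA-KO livers (log2 -0.83, SE 0.225, edgeR adjusted p = 0.0448). Of 11 tested genes of glutathione supply, 1 was lower, Chac2, which degrades glutathione, at 28.5 ± 9.8 and 12.4 ± 1.62 CPM (log2 -1.20, edgeR adjusted p = 0.0213). Of 5 tested membrane-bound glutathione transferases and their relatives, Mgst3 was lower (log2 -1.02, edgeR adjusted p = 0.045). Alox5ap of the same list, the partner of 5-lipoxygenase in leukocytes, was higher, at 1.87 ± 1.48 and 16.7 ± 3.74 CPM (log2 3.25, edgeR adjusted p = 0.00625).

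Among 9 efflux transporters of conjugates only Abcc1 was called, at 2.78 ± 1.96 CPM in WT livers and 11.9 ± 6.17 CPM in CgA-KO livers (log2 2.15, edgeR adjusted p = 0.0328). Of 14 other conjugation and detoxification enzymes 2 were lower. Inmt, which methylates indoles, stood at 326 ± 140 and 106 ± 6.17 CPM (log2 -1.63, edgeR adjusted p = 0.0156), and Glyat, which joins glycine to acyl groups, at 346 ± 63 and 158 ± 42.3 CPM (log2 -1.13, edgeR adjusted p = 0.0251). Of 15 regulators and their classic targets, the constitutive androstane receptor Nr1i3 was lower, at 1054 ± 393 and 453 ± 105 CPM (log2 -1.22, edgeR adjusted p = 0.0496), and its classic target Cyp2b10 was higher, at 6.16 ± 1.62 and 35.3 ± 16.3 CPM (log2 2.50, edgeR adjusted p = 0.00703). The receptor and this target stood in opposite directions. Of the 6 fits that left out a liver, Alox5ap was called in all, Cyp2b10 in 5 (not without WT replicate 2), Inmt in 3, Chac2, Abcc1 and Glyat in 2 and Slc26a1, Mgst3 and Nr1i3 in 1. The calls of Slc26a1, Mgst3 and Nr1i3 were also lost with library size alone, with upper-quartile factors and with a replicate block, those of Slc26a1 and Nr1i3 with 10 counts in every library, and that of Abcc1 with library size alone and with a filter on a total of 1 count. The number called dropped to 3 and 2 on leaving out WT replicates 2 and 3, and to 2 and 5 on leaving out CgA-KO replicates 1 and 2.

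Levels of genes with a known sex difference in mouse liver are given beside these results. Of all genes tested, 50.6% were below 0 and 3.84% were called lower. Of 15 male-biased genes 14 were below 0, with a median of -0.68, and 4 were lower, Hsd3b5, Slco1a1, Mup3 and Cyp7b1. Their summed level was 28247 to 56666 CPM in WT livers and 5112 to 21377 CPM in CgA-KO livers. The urinary protein genes Mup7, Mup20 and Mup3 made up most of this sum, with WT means of 18295, 13417 and 8238 CPM, and Mup7 and Mup20 were not called (edgeR adjusted p = 0.103 and 0.143). Of 8 tested female-biased genes 4 were higher, Cyp2a4, Cyp3a41a, Cyp3a44 and Cux2. The first 3 lay at 0 to 0.537 CPM in WT livers, entered the test through the CgA-KO libraries and were not in the fit with 10 counts in every library, so this count is no support for a direction of the list. The 11 listed genes summed to 90.6 to 108 CPM in WT livers and 177 to 315 CPM in CgA-KO livers. Hsd3b5 and Slco1a1 were called in all 6 fits that left out a liver, Mup3 and Cyp7b1 in 2, Cyp3a41a in 6, Cyp3a44 in 5, and Cyp2a4 and Cux2 in 3. Hsd3b5, a steroid-converting enzyme of male liver, stood at 82.5 ± 55.4 and 0.548 ± 0.246 CPM. With 0.279 to 0.762 CPM in CgA-KO livers, it entered the test through the WT libraries. It was not in the fit with 10 counts in every library, so its call is no support for a direction of the list either. The part of this pattern in the results for Gstp1, Sult1e1, Sult2a1, Sult2a2 and Sult3a1 was not tested.

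Markers of liver zones and of other cells are given beside the members. Over all genes tested, 8.60% were called higher and 3.84% lower. Of 12 pericentral markers 1 was higher and of 10 periportal markers 1 was higher, with summed levels of 6711 to 10807 against 6522 to 12698 CPM and of 7449.9 to 10259.5 against 8793 to 11784 CPM. Markers of cholangiocytes, which express some Gst genes, summed to 22.2 to 36.9 CPM in WT livers and 22.7 to 81.2 CPM in CgA-KO livers, with 0 of 6 called by edgeR (1 at an unadjusted p under 0.05, 0 by DESeq2 and limma-voom). The next values are for immune cells. Those of monocytes and dendritic cells summed to 51.2 to 142 CPM and to 307 to 497 CPM, with 5 of 9 higher, and those of T and NK cells to 4.04 to 15 CPM and to 52.1 to 119 CPM, with 6 of 9 higher by edgeR and 0 by limma-voom. Some of these markers entered the test through the CgA-KO libraries. Among them were Flt3 and Gzmb, at 0.298 to 0.424 and 0.128 to 0.593 CPM in WT livers. For B and plasma cells the sums were 21.2 to 121 and 41.1 to 121 CPM, with 0 of 8 called by edgeR, DESeq2 or limma-voom and 0 at an unadjusted p under 0.05. Stellate cell markers summed to 223 to 282 and 357 to 632 CPM with 2 of 10 higher, endothelial markers to 158 to 210.5 and 177 to 254 CPM with 2 higher and 1 lower of 10, and erythroid markers to 118 to 291 and 333 to 476 CPM with 1 higher and 1 lower of 4. No matched marker was at 0 in every library. The part of these cell populations in the results for the members was not tested.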

How the data were processed

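Poly(A) RNA from the liver was measured in 6 mice, 3 per genotype, with a library for each. The authors quantified paired-end reads of 100 bp with Salmon 1.4.0 against the GRCm38 transcriptome, and the deposited values are counts per gene symbol, whole numbers without normalization. The step from transcripts to genes is not given in the sources used here, so sharing of reads between paralogs cannot be followed. A total of 0 columns lacked a sample.

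Groups follow the library titles. edgeR 4.0.16 in R 4.3.3 was run on 13867 genes that passed filterByExpr (minimum count 10), with TMM factors, robust quasi-likelihood fits and a two-sided test with Benjamini-Hochberg adjustment over all genes. Calls are at an adjusted p under 0.05. Library totals of 10558616 to 31087453 counts set the precision, and replicates differed by more than sampling noise (chi-square per degree of freedom 29.9 to 190). Each library came from its own mouse, and p-values measure the spread between these livers. The SE of a log2 fold change is its size divided by the square root of F, an approximation. Alternatives were DESeq2 1.42.0, limma-voom (limma 3.58.1), upper-quartile factors, scaling by library size only, a minimum of 1 count in total or of 10 in each library, a threshold of 0.01, a replicate block and fits without each liver. The procedure was tested on simulated data.

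Members and lists were chosen with earlier results of these data known. Genes named with values were those called, the 10 members with the highest mean CPM, the most abundant and most changed member of each family and the called genes of the lists. Others named in the text were added after their values were seen. Coordinates, transcripts and shared 31-base stretches come from GENCODE M21 (GRCm38), and promoters from RefSeq (GRCm38.p6). Protein sequences were not used here, and a gene that the lists covered is not reported here. Reads from a gene and an overlapping gene cannot be told apart, because strand was not given for the counting. Plots used matplotlib 3.10.9 (Python 3.11.15).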

Additional observations from a re-analysis of the deposited data

How the results depend on the processing

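The 3 members higher and 3 lower became 6 and 6 with DESeq2 (Sult2a2, not tested in the edgeR fit, among the higher), and at an adjusted p under 0.01 they became 1 and 0 in edgeR, where an unadjusted p under 0.05 was reached by 18. Higher members numbered 6 with library size alone, 5 with upper-quartile factors and 5 with a filter on a total of 1 count. Leaving out a liver gave 1 to 4 higher and 1 to 5 lower members and 2 to 9 genes of the pathway lists, of which 9 were called with all livers, 18 with DESeq2 and 2 at 0.01. The 6 called members kept their direction under each alternative that gave them a value, and Sult1e1 had none with 10 counts in every library. Signs turned only in members that were not called. With library size alone these were Gstt1 (0.14), Gstm7 (0.04), Sult1b1 (0.12), Gstk1 (0.22), Gsta4 (0.10), Ugt3a2 (0.05), Gstm1 (0.05), Gstp3 (0.21), Ugt1a7c (0.02) and Ugt1a6b (0.28), and Ugt1a6b also turned with upper-quartile factors (0.04) and 10 counts in every library (0.01). With a liver left out the sign turned within the range of -0.35 to 0.02 for Gstt1, -0.44 to 0.07 for Gstm7, -0.14 to 0.22 for Gsto1, -0.42 to 0.19 for Sult1b1, -0.15 to 0.08 for Gstk1, -0.51 to 0.27 for Gstp3, -0.71 to 1.41 for Gsta1, -0.12 to 0.28 for Ugt1a1, -0.21 to 0.16 for Ugt1a6b and -1.01 to 0.07 for Sult2a7. The cause was not tested. With the replicate number as a block, 2 members were higher, 3 lower and 6 list genes called, and Sult5a1 was lost (edgeR adjusted p = 0.0815). Same-numbered livers correlated at 0.199, 0.0127 and -0.0659 in their deviations from the genotype means. Livers with different numbers were not correlated for reference, so these values cannot decide whether the numbers pair the samples. With 3 livers per genotype and a shallowest library of 10558616 counts, a member near 3 counts per library, such as Sult2a1, did not pass the filter, and the libraries of 3 mice set the precision of all others.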
